A study of Mus musculus with 6 samples.

Results

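Imprinted genes are transcribed mainly or only from the copy inherited from 1 parent. The 41 protein-coding genes described here were chosen by name as genes known to be imprinted in the mouse, and all 41 were found among the 22332 gene symbols of the deposited count table. By the literature, 22 are expressed from the paternal allele and 16 from the maternal allele, and for 3 (Grb10, Gnas and Inpp5f) the allele differs by isoform or tissue. Several of the maternal cases hold only in 1 tissue, such as Ube3a in neurons and Ascl2 in placenta. The RNA was that of mouse CGR8 embryonic stem cells, a line kept in serum with the cytokine LIF, 48 hours after transfection of siRNA. The control group was given a pool of non-targeting siRNAs (siCtrl, n = 3), and the other group a pool of siRNAs against Rsl24d1 (siRSL24D1, n = 3), whose protein helps to build the large subunit of the ribosome. Both groups were transfected, and untransfected cells were not analysed here. The design text calls the triplicates independent; nothing says whether they were separate cultures, so p-values measure the spread between these libraries.

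Imprinted genes lie in clusters that are governed by short control regions, whose DNA is methylated on 1 parental copy in the egg or sperm. After fertilization the zinc finger protein ZFP57, bound to TRIM28, holds this methylation at the marked copy, together with the maintenance methyltransferase DNMT1 and its partner UHRF1. Many imprinted genes act on fetal and placental growth. Paternally expressed Igf2, for example, promotes growth, while maternally expressed Igf2r, which clears the IGF2 protein, and Grb10, which dampens insulin and IGF receptors, restrain it. The counts here are summed over both alleles and over all isoforms of a gene, so they show total mRNA levels and not which allele was read.

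Library totals ran from 30943635 to 35214000 estimated counts. Rsl24d1 itself was at 99.4, 103 and 97.9 CPM (counts relative to the library total, scaled between libraries by the TMM method) in the siCtrl libraries and at 53.8, 55.6 and 52.1 CPM in the siRSL24D1 libraries. The groups did not overlap, and the log2 fold change, siRSL24D1 over siCtrl throughout, was -0.89 with a standard error (SE) of 0.04 (edgeR adjusted p = 2.0e-05). The 8 pluripotency markers summed to 2976 to 3365 CPM in siCtrl and 2563 to 2695 CPM in siRSL24D1, so the markers of their label were detected in every library, at lower sums in siRSL24D1. Of these 8 markers 1 rose and 5 fell (12.5% and 62.5%, beside 21.2% and 20.0% of all 15084 genes tested). Tdgf1, a Nodal co-receptor, fell most, at a log2 fold change of -0.62, followed by the core factor Nanog at -0.49 and Dppa5a at -0.47. Esrrb and Utf1 also fell, at -0.17 and -0.16, and Zfp42 rose at 0.24. The core factors Pou5f1 and Sox2 were not called, at 0.00 and 0.08. Markers of other cells that use imprinted genes were lower, with 8 fibroblast markers at 125 to 157 CPM in siCtrl and 122 to 146 CPM in siRSL24D1, 7 neuron markers at 175 to 181 and 168 to 186, 8 trophoblast markers at 57.9 to 61.6 and 55.7 to 57.2, and 8 endoderm markers at 10.6 to 12.1 and 12.9 to 15.9. Of the tested markers, 1 of 6 fibroblast, 1 of 7 neuron, 3 of 5 trophoblast and 2 of 6 endoderm markers rose (16.7%, 14.3%, 60.0% and 33.3%) and 2, 2, 1 and 0 fell (33.3%, 28.6%, 20.0% and 0%). Within the trophoblast sum the keratin gene Krt7, at a mean of 37.7 CPM in siCtrl and 22.5 in siRSL24D1, fell by 0.75 on the log2 scale, while the transcription factor genes Cdx2, Hand1 and Eomes rose by 1.58, 0.75 and 0.43; these were named after their values were seen. The neuron sum was mostly Stmn2, at a mean of 128 CPM in siCtrl and 103 in siRSL24D1. Stmn2 and Syt1 fell, at log2 fold changes of -0.31 and -0.76, while Tubb3 rose at 1.08. These neuron genes were also named after their values were seen. Prl3d1, a trophoblast giant cell hormone, had no count, and Tpbpa, Elf5, Afp, Ttr, Lum and Fap were too low to test. The part of such cells in the results below was not tested, and in bulk RNA fewer cells with a transcript and less transcript per cell cannot be told apart.

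Of the 41 imprinted genes, 39 passed the filter on low counts. Genes were called at an edgeR adjusted p under 0.05 over all 15084 genes tested. Among imprinted genes 11 rose (Dio3, Zim1, Dlk1, Mest, Osbpl5, Ndn, Plagl1, Peg12, Impact, Grb10 and Peg3), against a background of 21.2% of all genes tested, and 5 fell (Calcr, Copg2, Nnat, Snrpn and Igf2), against a background of 20.0%. In all 16 of 39 were called, which is 41.0%, beside 41.2% of all genes tested. The share of imprinted genes that were called was thus close to that of all genes. Their median log2 fold change was 0.06, beside 0.02 over all genes tested. For 12 of the 39 all siRSL24D1 libraries lay above all siCtrl libraries (26.8% of all genes tested), and for 9 they lay below (26.2%).

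By parental allele, 8 of 21 tested paternally expressed genes rose and 3 fell (38.1% and 14.3%, beside 21.2% and 20.0% of all genes tested), at a median log2 fold change of 0.27. Of 15 tested maternally expressed genes 2 rose and 2 fell (13.3% each), at a median of -0.00. The difference between the alleles was not tested. Higher and lower genes occurred on both sides, since paternally expressed Nnat, Snrpn and Igf2 fell and maternally expressed Zim1 and Osbpl5 rose.

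**Figure D1:**
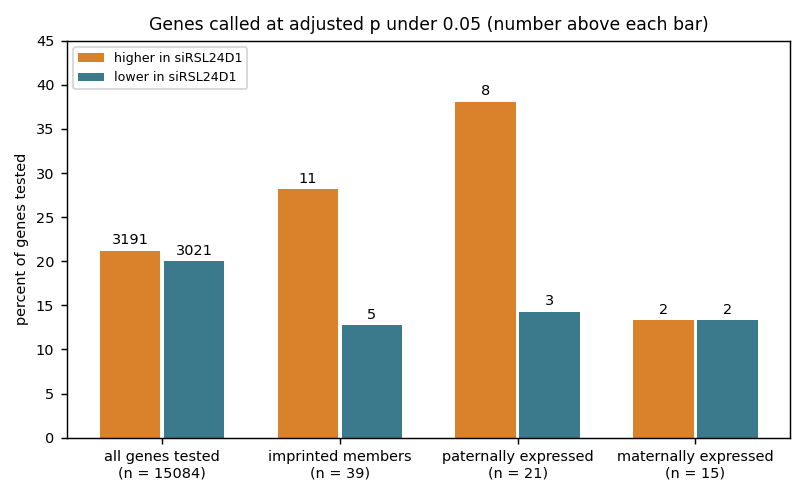
Percent of genes tested that were called higher (orange) or lower (blue-green) in siRSL24D1 at an adjusted p under 0.05, for all 15084 genes tested, the 39 tested imprinted genes, the 21 paternally and the 15 maternally expressed ones; the number of genes stands above each bar. The imprinted genes have 11 higher and 5 lower calls, and the maternally expressed ones 2 of each.

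**Figure D2:**
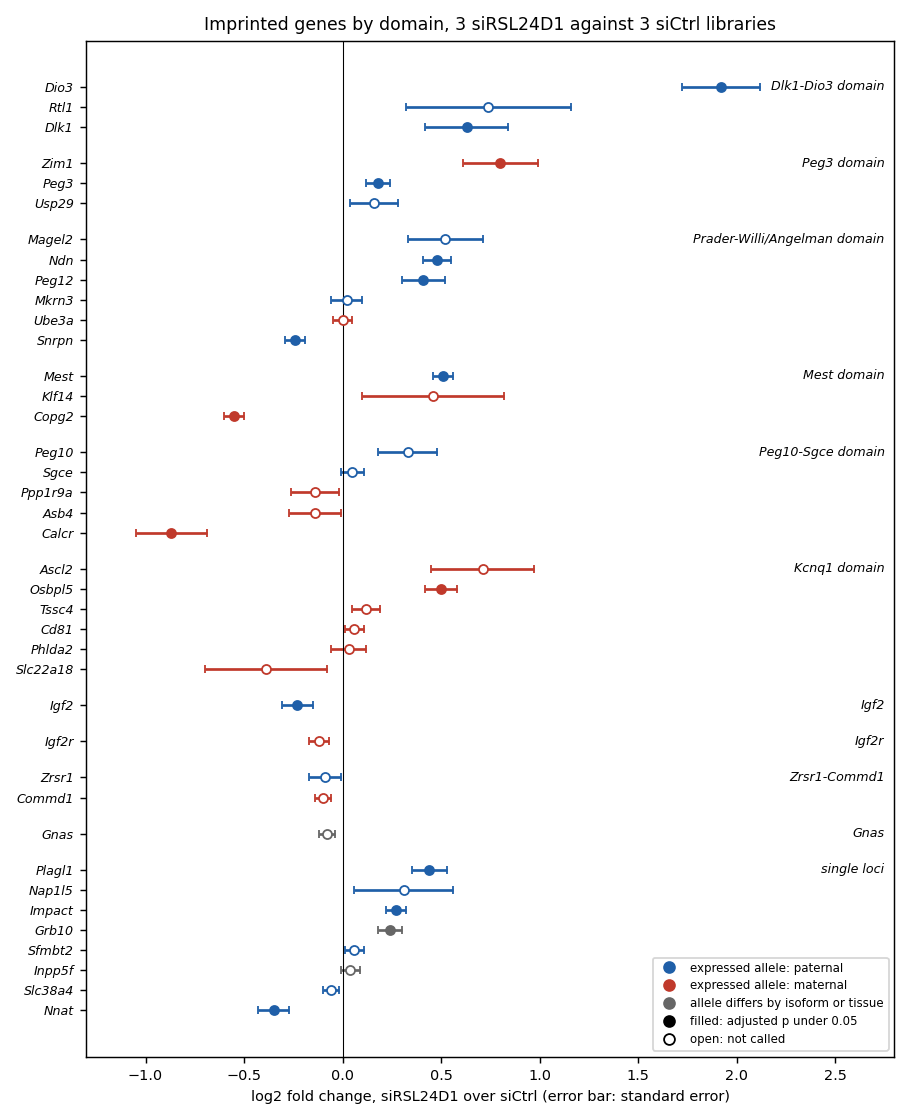
Log2 fold change (siRSL24D1 over siCtrl, 3 libraries each) of the 39 tested imprinted genes with its standard error, grouped by imprinted domain, coloured by the allele known to be expressed and filled where called. Dio3 stands at 1.92, the other genes lie between -0.87 and 0.80, and Mest and Copg2 of the same domain lie on opposite sides of 0.

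Levels differed widely between the genes. Per kilobase of merged exons, Peg10 was highest in siCtrl at 309 CPM per kilobase. It was followed by Nnat at 65.9, Impact at 65.4, Cd81 at 64.7 and Slc38a4 at 62.2, and the lowest of the tested genes were Rtl1 at 0.0391, Klf14 at 0.112, Zim1 at 0.179 and Dio3 at 0.213. Peg10 alone made up 36.3% to 44.9% of the summed CPM of the 41 genes in siCtrl and 40.3% to 47.3% in siRSL24D1. Rasgrf1, an exchange factor for Ras, had 6 counts over the siCtrl and 13 over the siRSL24D1 libraries, and Kcnq1, a potassium channel, had 3 and 7. These were the untested pair.

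The Dlk1-Dio3 domain on chromosome 12 held the largest rise. Dio3 (chromosome 12, 110279068 to 110281097, plus strand, GRCm38) encodes the deiodinase that inactivates thyroid hormone. It was at 0.423, 0.461 and 0.410 CPM in the siCtrl libraries and at 1.66, 1.45 and 1.83 CPM in the siRSL24D1 libraries. Every siRSL24D1 library lay far above every siCtrl library, at 164 against 43 counts over the groups. The log2 fold change was 1.92 with an SE of 0.20 (edgeR adjusted p = 2.2e-04). The level stayed low, at 0.812 CPM per kilobase in siRSL24D1.

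Dlk1 (109452823 to 109463336, plus strand), a membrane protein that holds back fat cell differentiation, was at 3.21, 1.78 and 2.49 CPM in siCtrl and at 4.27, 3.25 and 4.09 CPM in siRSL24D1. The highest siCtrl library and the lowest siRSL24D1 library nearly touched. Its log2 fold change was 0.63 with an SE of 0.21 (edgeR adjusted p = 0.0413). The call was lost without siCtrl 2 (adjusted p = 0.125), siCtrl 3 (0.0724), siRSL24D1 1 (0.125) or siRSL24D1 3 (0.113), in a range of 0.00915 to 0.125 over all alternatives. Rtl1, a retrotransposon-derived gene of placenta and muscle that lies antisense to several microRNAs, was at 25 counts over the siCtrl and 42 over the siRSL24D1 libraries (log2 fold change 0.74, SE 0.42, adjusted p = 0.198). Its siCtrl 3 value of 0.410 CPM exceeded the 0.151 and 0.184 CPM of siCtrl 1 and 2, and without siCtrl 3 it was at 1.29 (adjusted p = 0.0419, range 0.0419 to 0.439).

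In the Mest domain on chromosome 6, neighbours moved in opposite directions. Mest (30723547 to 30748465, plus strand), a paternally expressed gene for a hydrolase-like protein of embryonic mesoderm, was at 125, 113 and 119 CPM in siCtrl and at 179.5, 167 and 163 CPM in siRSL24D1. The lowest siRSL24D1 library lay well above the highest siCtrl library. The log2 fold change was 0.51 with an SE of 0.05 (edgeR adjusted p = 2.6e-04). Copg2 (30747554 to 30896794, minus strand), a subunit of the COPI coat of Golgi vesicles that is expressed from the maternal allele, was at 104, 100.3 and 96.4 CPM in siCtrl and at 70.5, 69.4 and 65.0 CPM in siRSL24D1. Here all siRSL24D1 libraries were lower, with a log2 fold change of -0.55 and an SE of 0.05 (edgeR adjusted p = 1.2e-04). Mest and Copg2 run towards each other, and in GENCODE M21 their exons overlap on opposite strands over 912 bases, 23.1% of the merged exons of Mest and 17.8% of those of Copg2. The libraries were stranded, but the strand setting of the counting is not given in the sources used here, so the way reads of the overlap were assigned is uncertain for both. Klf14, a zinc finger factor of the same domain, was at 0.46 with an SE of 0.36 (adjusted p = 0.343).

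The promoters of Mest and Copg2 are shown because these adjacent genes moved apart. The windows are RefSeq's (GRCm38.p6), 300 bases around the gene start, 5′ to 3′ on the gene's strand. Capitals mark the hexamer TGCCGC, which ZFP57 binds when methylated, or its reverse complement GCGGCA. Mest has several annotated starts, and the one shown lies in the control region that is methylated in the egg.
Mest promoter (chr6:30737800-30738099, plus strand): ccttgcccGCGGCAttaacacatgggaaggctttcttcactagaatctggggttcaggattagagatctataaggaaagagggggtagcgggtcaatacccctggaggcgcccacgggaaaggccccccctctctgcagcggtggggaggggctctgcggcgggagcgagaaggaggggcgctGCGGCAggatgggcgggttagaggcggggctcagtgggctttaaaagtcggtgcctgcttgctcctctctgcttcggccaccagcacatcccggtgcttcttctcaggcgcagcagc
Copg2 promoter (chr6:30896745-30897044, minus strand): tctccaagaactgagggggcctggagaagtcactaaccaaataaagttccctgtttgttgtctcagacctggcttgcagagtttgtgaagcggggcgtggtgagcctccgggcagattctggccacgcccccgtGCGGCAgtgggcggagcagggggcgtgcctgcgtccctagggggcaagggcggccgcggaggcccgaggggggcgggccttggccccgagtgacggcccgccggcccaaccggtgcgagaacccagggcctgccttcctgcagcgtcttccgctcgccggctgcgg
The Mest window held the hexamer 2 times among 17 CpG dinucleotides, and the Copg2 window held it 1 time among 25. The motif occurred in both windows, and a link between it and expression was not tested. Copg2 was not among the genes taken by textbook knowledge to have a promoter in a control region methylated in the egg. Of all 27025 genes with a window, 13.1% held the hexamer.

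The Prader-Willi and Angelman domain on chromosome 7 was mixed. Ndn (62346569 to 62350262, plus strand), a MAGE family protein that restrains growth in neurons, rose from a mean of 17.0 ± 0.671 to one of 23.7 ± 1.55 CPM (± SD with n = 3 here and below), with a log2 fold change of 0.48 and an SE of 0.07 (edgeR adjusted p = 8.4e-04). Peg12, a Frat-family regulator of the kinase GSK3, was at 5.14 ± 0.598 and 6.85 ± 0.212 CPM (log2 fold change 0.41, adjusted p = 0.0143). The related MAGE gene Magel2 was at 1.36, 1.91 and 2.14 CPM in siCtrl and at 2.87, 2.28 and 2.65 CPM in siRSL24D1. Its groups did not overlap, but at a log2 fold change of 0.52 with an SE of 0.19 it missed the threshold (adjusted p = 0.0538). It passed without siCtrl 3 (adjusted p = 0.0294, range over the alternatives 0.0294 to 0.150). Mkrn3, a ubiquitin ligase that holds back puberty, was at 0.02 (adjusted p = 0.883).

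Snrpn, which encodes a core protein of the spliceosome in neurons and stem cells, fell from 98.5 ± 4.52 to 83.2 ± 2.05 CPM (log2 fold change -0.24, SE 0.05, edgeR adjusted p = 0.00417). All 3 siRSL24D1 libraries lay below all siCtrl libraries. Its exons share 589 bases with a same-strand gene model, Gm38393, and 216 bases with Snurf, and its counts were not whole in any library, so its level is an estimate that divides shared reads. Gm38393 was at 13.8 ± 0.912 and 12.6 ± 0.787 CPM, with groups that overlapped. Values that were not whole also occurred in all 6 libraries for Zim1, Usp29, Gnas and Commd1. Of the 41 imprinted genes, 23 had such a value in at least 1 library. Maternally expressed Ube3a, the ubiquitin ligase lost in Angelman syndrome, averaged 236 ± 12.0 CPM in siCtrl against 235 ± 11.7 in siRSL24D1 (log2 fold change -0.00, SE 0.05, adjusted p = 0.961), and the sign of this difference changed with the scaling. Paternally expressed genes of the domain thus stood at -0.24 for Snrpn, 0.02 for Mkrn3 and 0.41 to 0.52 for Peg12, Ndn and Magel2.

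The Peg3 domain lies elsewhere on chromosome 7. Zim1 (6671269 to 6696450, minus strand), a maternally expressed zinc finger gene, was at 1.24, 1.20 and 1.91 CPM in siCtrl and at 2.45, 2.45 and 2.68 CPM in siRSL24D1. The groups did not overlap, with siCtrl 3 nearest to siRSL24D1, and the log2 fold change was 0.80 with an SE of 0.19 (edgeR adjusted p = 0.0119). Paternally expressed Peg3, which encodes a large zinc finger protein, rose from 586 ± 30.8 to 664 ± 40.4 CPM, giving a log2 fold change of 0.18 (SE 0.06, adjusted p = 0.0371). Its siCtrl 3 and siRSL24D1 2 libraries both stood at 622 CPM. The call of Peg3 was lost without siCtrl 1 (adjusted p = 0.118), siCtrl 2 (0.143), siRSL24D1 1 (0.122) or siRSL24D1 3 (0.104), in a range of 0.00161 to 0.143. Usp29, a ubiquitin protease read in the other direction from the same start region as Peg3, was at 0.16 with an SE of 0.12 (adjusted p = 0.294), and at 0.29 without siCtrl 3 (adjusted p = 0.0333, range 0.0333 to 0.657). The reference windows of Peg3 and Usp29 share 263 bases.

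In the Peg10-Sgce domain of chromosome 6, Calcr (3685680 to 3764714, minus strand), the calcitonin receptor, showed the largest fall among the 39 tested genes of the main list. It was at 3.27, 3.38 and 2.93 CPM in siCtrl and at 1.27, 2.02 and 1.90 CPM in siRSL24D1. Every siRSL24D1 library was below every siCtrl library, and the log2 fold change was -0.87 with an SE of 0.18 (edgeR adjusted p = 0.00534). The other maternally expressed genes of the domain were not called, with Asb4, a SOCS box protein, at -0.14 (SE 0.13, adjusted p = 0.422) and Ppp1r9a, the actin-binding neurabin, at -0.14 (SE 0.12, adjusted p = 0.368). With a term for 2 sets of libraries that cross the groups, siCtrl 1, siCtrl 2 and siRSL24D1 2 against the others, Ppp1r9a was at -0.25 (adjusted p = 2.2e-04, range over the alternatives 2.2e-04 to 0.849). The sets were read from the spread within groups in these data, so the term lowers that spread by construction.

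Peg10, a retrotransposon-derived gene needed for the placenta, was at 1752, 1869 and 2554 CPM in siCtrl and at 2768, 2134 and 2855 CPM in siRSL24D1. The groups overlapped, since siCtrl 3 was above siRSL24D1 2. The log2 fold change was 0.33 with an SE of 0.15 (edgeR adjusted p = 0.123). Peg10 passed without siCtrl 3 (log2 fold change 0.50, adjusted p = 0.00835), without siRSL24D1 2 (0.45, adjusted p = 0.0402), with the replicate number as a block (0.34, adjusted p = 0.0229) and, at a smaller log2 fold change of 0.19, with the term for the library sets (adjusted p = 2.9e-04), in a range of 2.9e-04 to 0.313 over the alternatives. Sgce, the epsilon-sarcoglycan gene that shares its start region with Peg10 and is also paternally expressed, was at 31.3 ± 1.98 and 32.4 ± 0.426 CPM (log2 fold change 0.05, SE 0.06, adjusted p = 0.495).

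The Peg10 values follow a pattern of the libraries that crosses both groups. Deviations from the group mean, over 10167 genes whose average log2 CPM was 3 or more, correlated at 0.588 and 0.518 between siCtrl 3 and siRSL24D1 1 and 3, and at 0.757 and 0.525 between siRSL24D1 2 and siCtrl 1 and 2. These are descriptions across genes, which are not independent, and deviations within a group sum to 0. The labels name no batch. Of the 39 imprinted genes, 10 had siCtrl 3 as the highest siCtrl and siRSL24D1 2 as the lowest siRSL24D1 library (Igf2r, Peg3, Peg10, Magel2, Ube3a, Plagl1, Zim1, Usp29, Ppp1r9a and Sfmbt2), and 14 showed the opposite order, beside 22.9% and 25.2% of all genes tested. For Peg10, siCtrl 3 was at 1.41 times the mean of siCtrl 1 and 2. Within siCtrl 1, siCtrl 2 and siRSL24D1 2 the ratio of siRSL24D1 to siCtrl was 1.18 for Peg10, and within siCtrl 3, siRSL24D1 1 and siRSL24D1 3 it was 1.10, beside 1.26 over all libraries. The same ratios were 3.29 and 4.25 for Dio3, 1.40 and 1.44 for Mest, 0.681 and 0.703 for Copg2, 0.609 and 0.541 for Calcr, and 2.01 and 1.35 for Zim1. Dio3, Mest, Copg2, Calcr and Zim1 had groups that did not overlap. Their direction within each set was therefore fixed and says nothing about the sets. The siRSL24D1 value of the first set and the siCtrl value of the second rest on 1 library each. With the set as a term in the fit, a setting added after the data were seen, 15 imprinted genes rose and 8 fell, beside a background that was also larger, at 27.3% and 25.5% of all genes tested. The genes called with this term and not without it were Ascl2 at a log2 fold change of 0.75, Peg10 at 0.19, Tssc4 at 0.17, Cd81 at 0.10, Gnas at -0.10, Igf2r at -0.15 and Ppp1r9a at -0.25.

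**Figure D3:**
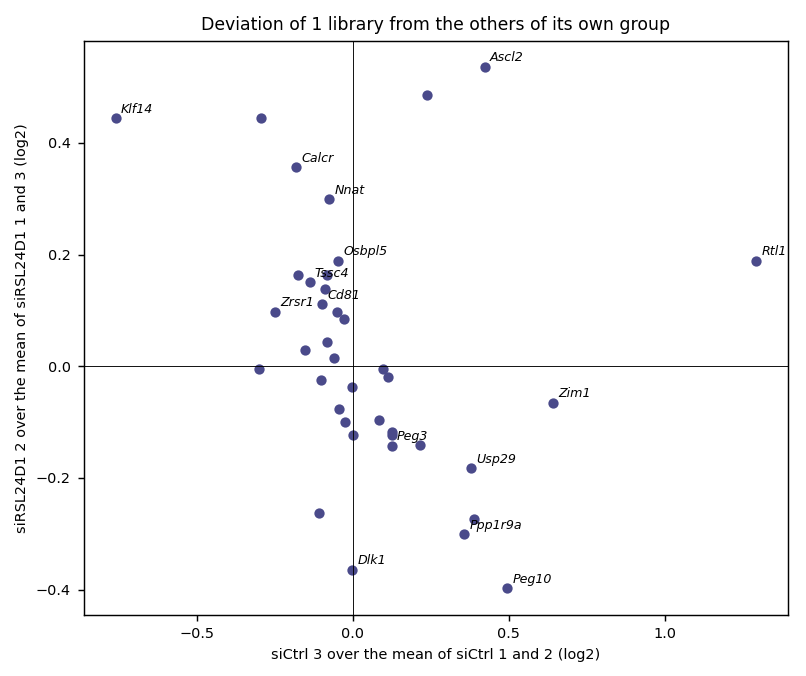
Each point is 1 of the 39 tested imprinted genes; the x axis gives siCtrl 3 over the mean of siCtrl 1 and 2 and the y axis siRSL24D1 2 over the mean of siRSL24D1 1 and 3, both as log2 ratios of CPM. Peg10 lies at the lower right (ratios of 1.41 and 0.759), and 10 genes are in that corner by the order of all their libraries against 14 in the upper left.

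In the Kcnq1 domain on distal chromosome 7, Osbpl5 (143688762 to 143756985, minus strand), an oxysterol-binding lipid carrier, rose from 16.5 ± 0.345 to 23.2 ± 2.35 CPM, with a log2 fold change of 0.50 and an SE of 0.08 (edgeR adjusted p = 0.00170). Its siRSL24D1 libraries were at 20.6, 25.3 and 23.8 CPM, all above the 16.1 to 16.8 CPM of siCtrl. Ascl2, a transcription factor of trophoblast, was at 0.71 with an SE of 0.26 (adjusted p = 0.0570). Its groups did not overlap at means of 0.610 and 0.996 CPM, and it passed without siCtrl 3 (adjusted p = 0.0494, range 0.0371 to 0.188). The domain's other tested genes were not called. Phlda2, which limits placental growth, was at 0.03, the tetraspanin Cd81 at 0.06, Tssc4 at 0.12 and the transporter Slc22a18 at -0.39, with adjusted p-values of 0.193 to 0.789.

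The growth factor gene Igf2 (chromosome 7, 142650766 to 142666816, minus strand) averaged 133 ± 2.74 CPM in siCtrl against 113 ± 13.5 in siRSL24D1, with a log2 fold change of -0.23 with an SE of 0.08 (edgeR adjusted p = 0.0445). The siRSL24D1 libraries were at 129, 107 and 104 CPM, and the first of them lay next to the lowest siCtrl library at 129.9 CPM. The call of Igf2 was lost with library totals in place of TMM (adjusted p = 0.0735) and without siCtrl 1 (0.0799), siCtrl 2 (0.126), siCtrl 3 (0.0524), siRSL24D1 2 (0.112) or siRSL24D1 3 (0.147), in a range of 0.00240 to 0.147. Of its merged exons 62.8% are shared with the read-through model Gm49394, which itself had at most 0.454 CPM in any library. Igf2r on chromosome 17, the receptor that removes IGF2, was at 139 ± 4.85 and 127 ± 5.27 CPM with groups that did not overlap (log2 fold change -0.12, adjusted p = 0.0650). Igf2r passed with DESeq2 size factors (-0.13, adjusted p = 0.0450) and with the library-set term (-0.15, adjusted p = 0.00117), in a range of 0.00117 to 0.171. Grb10, the adaptor on chromosome 11 that dampens insulin and IGF receptors, rose from 22.6 ± 1.18 to 26.8 ± 1.46 CPM (log2 fold change 0.24, adjusted p = 0.0157), a call lost without siCtrl 2 (adjusted p = 0.0708, range 4.4e-04 to 0.0708).

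Among other genes of the IGF axis, 2 of 13 tested rose and 5 fell, beside the background of 21.2% and 20.0%. The binding protein genes Igfbp2 and Igfbp3 fell by 0.73 and 0.52 on the log2 scale, and Igfbp5 rose from 6.36 ± 1.60 to 14.8 ± 2.99 CPM, giving a log2 fold change of 1.21 (edgeR adjusted p = 0.00191).

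Of the single imprinted loci, Plagl1 (chromosome 10, 13060504 to 13131694, plus strand), a paternally expressed zinc finger factor, rose from 12.5 ± 1.10 to 16.9 ± 1.52 CPM, giving a log2 fold change of 0.44 (SE 0.09, edgeR adjusted p = 0.00597). Impact, a paternally expressed inhibitor of the stress kinase GCN2, rose from 336 ± 12.1 to 404 ± 17.4 CPM (log2 fold change 0.27, adjusted p = 0.00285). Nnat (chromosome 2, 157560078 to 157562522, plus strand), a small membrane protein of the endoplasmic reticulum, went the other way and fell from 120.5 ± 3.99 to 94.4 ± 11.4 CPM, giving a log2 fold change of -0.35 (SE 0.08, adjusted p = 0.00879). In Nnat, siRSL24D1 2 at 108 CPM stood apart from siRSL24D1 1 and 3 at 87.9 and 87.8 CPM, while all 3 were below the lowest siCtrl library. None of these calls was lost in any alternative run.

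The remaining imprinted genes were not called, and their log2 fold changes were small or imprecise. Sfmbt2, a Polycomb-related protein of extraembryonic tissue, was at 0.06, the amino acid transporter Slc38a4 at -0.06, Inpp5f, a phosphoinositide phosphatase, at 0.04 and Nap1l5, a nucleosome assembly protein relative, at 0.31 with an SE of 0.25. Gnas, which encodes the stimulatory G protein alpha subunit and other products, was at -0.08. The splicing factor relative Zrsr1 was at -0.09 and Commd1, a copper and NF-kappaB regulator whose gene holds Zrsr1 within it, at -0.10. Among these 7 genes the adjusted p was lowest for Commd1, at 0.103, and highest for Inpp5f, at 0.556. Zrsr1 passed without siCtrl 3 (-0.18, adjusted p = 0.0289, range 0.0289 to 0.812). In GENCODE M21 the exons of Zrsr1 and Commd1 overlap on opposite strands over 412 bases. Commd1 also shares 294 bases with the same-strand model Gm28048, and Gnas 1469 with the opposite-strand model Gm20721. The way reads of these overlaps were assigned is uncertain. Gnas, Commd1 and Slc38a4 had groups that did not overlap, all lower in siRSL24D1, which also held for 26.2% of all genes tested.

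**Figure D4:**
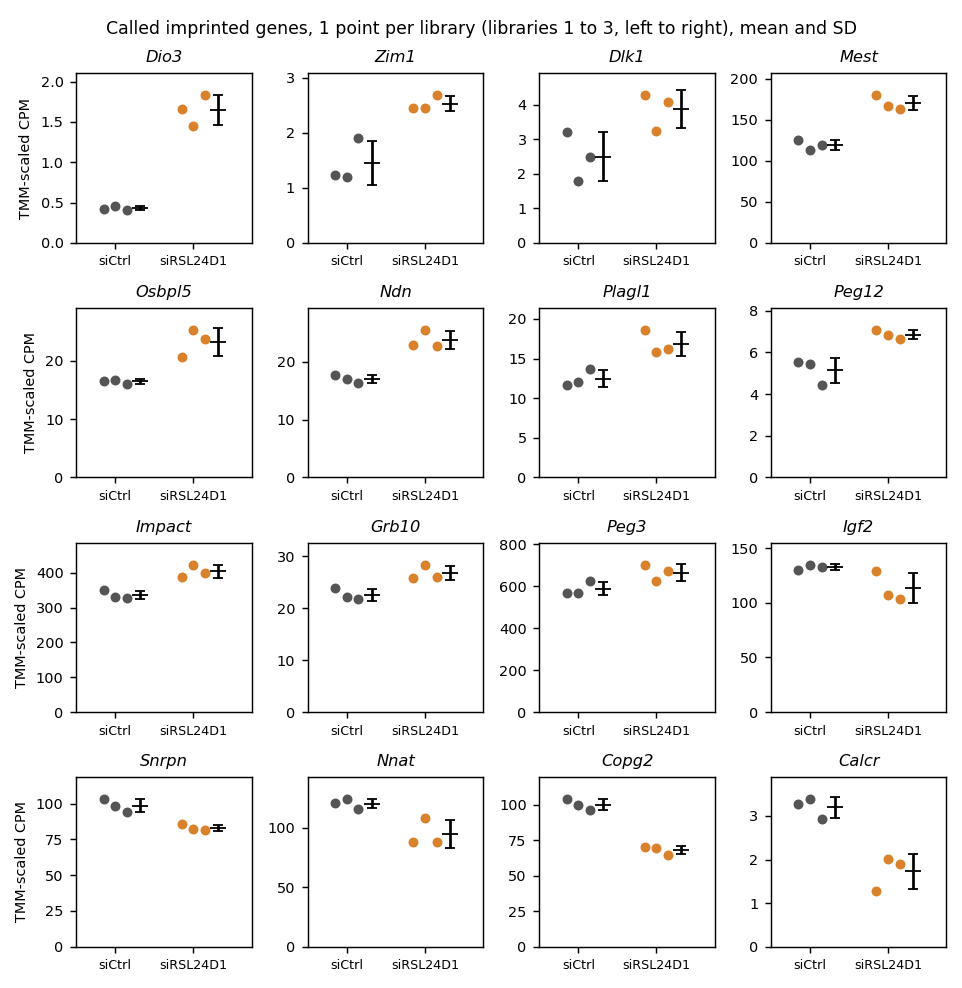
TMM-scaled CPM of the 16 called imprinted genes in each of the 3 siCtrl (grey) and 3 siRSL24D1 (orange) libraries, with mean and SD, ordered by log2 fold change and each on its own axis from 0. The groups are separate in every panel but that of Peg3, whose siCtrl 3 and siRSL24D1 2 libraries both stand at 622 CPM, and the points of Dlk1 and Igf2 nearly touch.

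Promoters that lie in a control region methylated in the egg were set beside these values. Of 10 such genes named by textbook knowledge, 7 had a window in the RefSeq table, and 5 of the 7 (Mest, Plagl1, Nnat, Snrpn and Nap1l5) held the ZFP57 hexamer, on either strand. Over all imprinted genes 12 of 35 with a window held it in at least 1 window, beside 13.1% of 27025 genes in the table. Counted by window, 13 of 56 imprinted windows (23.2%) held it, beside 11.6% of all 32851 windows. These imprinted windows were also richer in CpG, with a median of 16 beside 7 over all windows, and the hexamer contains a CpG. Expression followed no single direction across the 5: Mest and Plagl1 rose, Nnat and Snrpn fell and Nap1l5 was not called. The windows of Plagl1, Nnat and Snrpn show the hexamer in genes that moved both ways, and those of Peg3 and Dio3 are given as promoters of genes that rose and hold no copy.
Plagl1 promoter (chr10:13090582-13090881, plus strand): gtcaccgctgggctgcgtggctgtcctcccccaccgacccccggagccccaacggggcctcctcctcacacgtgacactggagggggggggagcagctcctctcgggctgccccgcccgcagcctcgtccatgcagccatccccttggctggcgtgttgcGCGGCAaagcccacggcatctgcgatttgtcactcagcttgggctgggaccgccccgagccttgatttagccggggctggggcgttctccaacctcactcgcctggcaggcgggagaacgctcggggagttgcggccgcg
Nnat promoter (chr2:157559828-157560127, plus strand): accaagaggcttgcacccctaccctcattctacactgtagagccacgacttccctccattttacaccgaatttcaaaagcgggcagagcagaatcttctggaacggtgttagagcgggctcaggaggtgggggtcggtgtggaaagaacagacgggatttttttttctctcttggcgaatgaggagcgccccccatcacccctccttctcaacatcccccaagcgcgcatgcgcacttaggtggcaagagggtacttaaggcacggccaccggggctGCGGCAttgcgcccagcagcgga
Snrpn promoter (chr7:60005150-60005449, minus strand): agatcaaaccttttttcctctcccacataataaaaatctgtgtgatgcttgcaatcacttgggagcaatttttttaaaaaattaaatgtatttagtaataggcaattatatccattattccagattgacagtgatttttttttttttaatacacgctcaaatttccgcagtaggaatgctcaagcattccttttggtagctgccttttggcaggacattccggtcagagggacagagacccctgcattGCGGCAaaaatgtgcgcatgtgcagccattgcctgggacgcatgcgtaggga
Peg3 promoter (chr7:6730370-6730669, minus strand): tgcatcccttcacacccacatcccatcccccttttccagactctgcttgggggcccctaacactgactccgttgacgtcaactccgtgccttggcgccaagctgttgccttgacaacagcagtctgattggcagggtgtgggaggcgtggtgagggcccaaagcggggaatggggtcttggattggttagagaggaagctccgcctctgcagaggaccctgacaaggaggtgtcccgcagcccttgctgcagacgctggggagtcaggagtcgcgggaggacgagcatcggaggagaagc
Dio3 promoter (chr12:110278980-110279279, plus strand): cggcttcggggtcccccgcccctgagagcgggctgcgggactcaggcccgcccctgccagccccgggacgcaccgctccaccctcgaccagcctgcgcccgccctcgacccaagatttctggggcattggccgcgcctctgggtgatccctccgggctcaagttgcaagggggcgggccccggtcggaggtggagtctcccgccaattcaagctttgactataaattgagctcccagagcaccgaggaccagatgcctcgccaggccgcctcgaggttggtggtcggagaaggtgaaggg
The Dio3 window held 25 CpG dinucleotides, that of Plagl1 26, those of Nnat and Peg3 17 and 13, and that of Snrpn 7. No match says only that these letters are not in the window, and DNA methylation was not measured.

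Among genes whose products set, keep or remove DNA methylation at imprinted regions, 22 were tested: 2 rose (Dnmt3l and Zfp57) and 6 fell (Dppa3, Dnmt3b, Smchd1, Uhrf1, Ehmt2 and Hells), beside 21.2% and 20.0% of all genes tested. Dnmt3l, the cofactor of the methyltransferases that set imprints in germ cells, rose from 49.4 ± 3.42 to 88.3 ± 5.58 CPM, giving a log2 fold change of 0.84 (edgeR adjusted p = 7.3e-05). Dppa3, which protects imprints in the early embryo, fell from 61.3 ± 4.18 to 37.6 ± 2.48 CPM, giving a log2 fold change of -0.71 (adjusted p = 1.6e-04). Dnmt3b, which encodes a methyltransferase for unmethylated DNA, was at -0.21 (adjusted p = 0.00308). Zfp57 was at 0.15 (adjusted p = 0.0274), and the values of Trim28 and Dnmt1 were 0.07 (adjusted p = 0.208) and -0.01 (adjusted p = 0.853).

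A further list of 34 imprinted genes and transcripts had 22 in the count table and 14 tested, of which 3 rose and 1 fell (21.4% and 7.14%, beside 21.2% and 20.0% of all genes tested). The fall was that of Atp10a, a lipid flippase gene next to Ube3a, from 70.4 ± 0.956 to 37.8 ± 0.429 CPM, with a log2 fold change of -0.90 (SE 0.04, edgeR adjusted p = 1.6e-05), beside -0.87 (SE 0.18) for Calcr. Pon2, a lactonase gene of the Peg10 region, rose by 0.47 and H13, which encodes a signal peptide peptidase, by 0.27; Blcap was the third at 0.17 (adjusted p = 0.0426). Non-coding RNAs of these domains such as H19, Meg3, Airn and Kcnq1ot1 were not among the count table's gene symbols and were not analysed.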

How the data were processed

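After removal of ribosomal RNA, 6 libraries of CGR8 cells were made with a stranded kit, per the labels' protocols, and grouped by the siRNA label. The authors deposited estimated counts by gene symbol, with no scaling between libraries. STAR 2.7.0f, Salmon 0.14.1 and build GRCm38 are named, per the submitters' processing notes; their roles, the annotation and the strand setting are not given in the sources here.

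Estimated counts were rounded, although the tests had been planned for counts in general. The filter was filterByExpr (count of 10, total of 15), which kept 15084 genes. After TMM scaling, siRSL24D1 was compared with siCtrl by the two-sided quasi-likelihood test in edgeR 4.0.16 (R 4.3.3), with Benjamini-Hochberg adjustment over all genes tested. On simulated counts (14833 genes run) the step recovered 36% of genes changed 1.25-fold, 72% changed 1.5-fold, 94% changed 2-fold and 100% changed 4-fold. Only 50 genes were changed at each fold, whereas 41.2% of genes were called in the data. The simulation also held no pattern of libraries that crosses the groups. Its shares therefore do not carry over to these data. Library totals limit precision for genes under about 1 CPM.

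Gene models and exon lengths are from GENCODE M21. Every imprinted gene is named with its result or as too low to test. Per-library values are given for those called with a log2 change of at least 0.5. A few others, chosen after their values were seen, have them too. Of each further list 3 genes are named, with others added after their values were seen. The imprinted genes and all lists were chosen with earlier results of these data known. Alternatives were DESeq2 size factors, library totals, other filters, the Wald test of DESeq2 1.42.0, the replicate number as a block, leaving out each library, and a term for library sets.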

Additional observations from a re-analysis of the deposited data

How the results depend on the processing

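Over the alternatives, 12 of the 16 called imprinted genes kept their call and direction; Igf2, Peg3, Dlk1 and Grb10 did not. Of 23 not called, 11 passed in at least 1 alternative. The number that rose was 8 (without siCtrl 2) to 15 (without siCtrl 3) when a library was left out, and the number that fell 4 to 5. Calls over all genes moved too. In those fits 2210 of 15275 (without siCtrl 2) to 3356 of 15250 genes (without siCtrl 3) rose. Those that fell ran from 2147 to 3285 in the same 2 fits. With the library set as a term, the number that fell was 8 (25.5% of all genes tested fell in that fit, beside 20.0%) and the median log2 fold change 0.09; the sets were read from the spread within groups, so this term lowers that spread by construction. The median was 0.10 with the DESeq2 test and 0.11 with no filter, which also include the pair of genes too low to test, 0.09 with library totals, and 0.06 to 0.10 without 1 library; the cause was not tested. Signs turned for uncalled genes near 0: Ube3a was at 0.02 with library totals and, without 1 library, at -0.03 to 0.04, Sgce at -0.01 to 0.09, Phlda2 at -0.04 to 0.06 and Mkrn3 at -0.04 to 0.09. Same-numbered libraries deviated together at -0.556, 0.525 and 0.518, so the numbers were not taken as pairs. With the replicate block 12 imprinted genes rose and 5 fell, beside 3327 and 3104 of all 15084 genes tested, Peg10 passing at 0.34 (edgeR adjusted p = 0.0229). Leaving out a library or adding a term leaves fewer degrees of freedom.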

Other observations

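Zdbf2, a paternally expressed gene on chromosome 1 noticed for its likeness to Peg10 after its values were seen, was at 123, 138 and 218 CPM in siCtrl and at 263, 174 and 297 CPM in siRSL24D1. As for Peg10, siCtrl 3 was the highest siCtrl library and siRSL24D1 2 the lowest siRSL24D1 library, and the groups overlapped (log2 fold change 0.61, SE 0.24, edgeR adjusted p = 0.0745). Tet1, which encodes an enzyme that oxidizes methylated cytosine, had the same order of libraries at 236, 265 and 363 CPM in siCtrl and 332, 221 and 317 CPM in siRSL24D1, with nearly equal group means of 288 and 290.1 CPM. Igf1r, the receptor for IGF1 and IGF2, was at 64.7, 75.6 and 109 CPM in siCtrl and at 78.7, 61.0 and 79.7 CPM in siRSL24D1 (log2 fold change -0.19, adjusted p = 0.451).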
